A study of Mus musculus with 12 samples.

Results

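The enzymes that carry glucose carbon were followed step by step through glycolysis, lactate dehydrogenase, the pyruvate dehydrogenase complex, the citrate cycle with its neighbouring isocitrate and malate dehydrogenases, and the pentose phosphate pathway. Of 37 genes listed by symbol, 29 had a probe named in the array annotation. All 29 had a probe that passed the filter on dim signals, which asked for a detection p below 0.01 on at least 2 of the 12 arrays, and 36 of their 37 probes passed it. They were read among 7894 genes tested. Gpi1, Gapdh, Eno1, Ldhb, Dld, Sucla2, G6pdx and Pgd had no named probe and are not analysed here.

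Tumors were grown in C57BL6 mice by placing 25000 cultured B16 cells, a pigmented mouse melanoma line, under the skin of the flank, and were collected at 100 to 400 mm3. A replicate is a pool: digested tumors from 3 mice were combined and sorted on the red fluorescent protein tdTomato, which marked the inoculated cells. The group tumor_F4 holds tdTomato-positive cells of F4 tumors (replicates A, B, C and D), and tumor_F0 holds those of F0 tumors (replicates B2 and B3). The groups microenvironment_F4 and microenvironment_F0 hold the tdTomato-negative cells of the same pools, that is, host cells and any tumor cells without the protein. By the labels F4 cells had acquired resistance to earlier checkpoint inhibitor therapy and F0 cells had met none. The labels disagree on current treatment: a treatment tag reserves it for the F4 groups, whereas the protocol gives all mice the same 3 injections of checkpoint inhibitors together with Fvax, a vaccine of B16 cells that express Flt3 ligand. Comparisons of F4 with F0 are therefore between the 2 kinds of tumor, whichever way they were treated. The replicates are separate pools of mice that carry the same F4 or F0 cells, not separately derived lines. RNA from each sorted sample was hybridised to a single-colour Illumina bead array, and values are log2 signals after normalization of the 12 arrays together.

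Glycolysis splits glucose into pyruvate in the cytosol, and lactate dehydrogenase can then reduce pyruvate to lactate, which regenerates the NAD that glycolysis needs. Pyruvate that enters mitochondria is turned into acetyl-CoA by the pyruvate dehydrogenase complex and is oxidised in the citrate cycle, while the pentose phosphate pathway branches off early in glycolysis and supplies NADPH and ribose. Melanomas and other tumors are known for making lactate even with oxygen present, and activated immune cells also run glycolysis at a high rate.

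The sorted fractions differed in their marker genes and 3 arrays stood apart from their groups. The mean log2 signal of 9 of 12 listed melanocyte markers was 10.19 to 11.12 in tumor_F4 and 10.88 to 11.01 in tumor_F0, against 8.60 to 10.87 in microenvironment_F4 and 9.28 to 10.76 in microenvironment_F0. On each microenvironment array 6 to 8 of the 9 melanocyte markers were detected. Mitf, the melanocyte master regulator, was the only one detected on none of these arrays. The mean of 4 of 5 leukocyte markers was 6.74 to 11.28 in tumor_F4 and 6.71 to 8.77 in tumor_F0, against 11.13 to 11.98 in microenvironment_F4 and 11.04 to 12.13 in microenvironment_F0. Array tumor_F4 A carried the high leukocyte value of its group (11.28) and also 8.25 for 5 of 7 skeletal muscle markers, against 5.52 to 5.70 on the other tumor_F4 arrays, at a mean raw signal of 250.5 where the other tumor arrays had 468.1 to 519.4. Arrays microenvironment_F4 D and microenvironment_F0 B3 carried the high melanocyte values of 10.87 and 10.76. Tumor arrays lay on one chip and microenvironment arrays on another, so fraction and chip cannot be told apart, and within each chip F0 arrays took the first positions, so line and position cannot be told apart. In sorted bulk samples, fewer cells of a type and less RNA per cell cannot be told apart either.

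The first question was which of these enzymes differed between tumor cells and the cells around them. In F4 tumors, 11 of the 29 genes were higher in tumor_F4 than in microenvironment_F4 at an adjusted p below 0.05 in limma, where 13.3% of all genes tested were, and 0 were lower, where 11.2% of all genes were. The 11 were the aldolases Aldoa and Aldoc, Pgk1, the pyruvate kinase Pkm, Ldha, the pyruvate dehydrogenase core subunit Dlat, citrate synthase Cs, Idh3a, Suclg2, and the malate dehydrogenases Mdh1 and Mdh2. Of these, Pgk1 met the filter through tumor arrays alone. Mdh1, detected on 1 microenvironment array, also met it only because of its tumor arrays, so both calls are descriptions. When detection on at least 6 arrays was required, which tumor arrays alone can meet, 10 of the 11 remained. The log2 difference lay above 0 in 27 of 29 genes, against 59.8% of all genes, and its median was 0.72 against 0.20. The F4 fractions did not overlap, with tumor_F4 above, for 11 of 29 genes (all those named but Pgk1, and Dlst), where 14.1% of all genes did so. In F0 tumors, with 2 pools, 0 of 29 genes passed, where 0.912% of all genes did, and 2 (Pgk1 and Dlat) had an unadjusted p below 0.05, where 24.6% of all genes did. The F0 differences ran from -0.63 to 1.39 with a median of 0.52 against 0.19 for all genes, and 26 of 29 lay above 0, against 60.2% of all genes. That lead of the members turned on 1 array, since the member median less the all-gene median was 0.33 with all arrays and -0.013 without microenvironment_F0 B2. Within pools, where both fractions come from the same mice, 19 of 29 genes (65.5%) were higher in the tumor fraction in all 6 pools and 0 were lower in all 6, while of all genes 28.7% were higher and 16.4% lower in all 6.

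**Figure D1:**
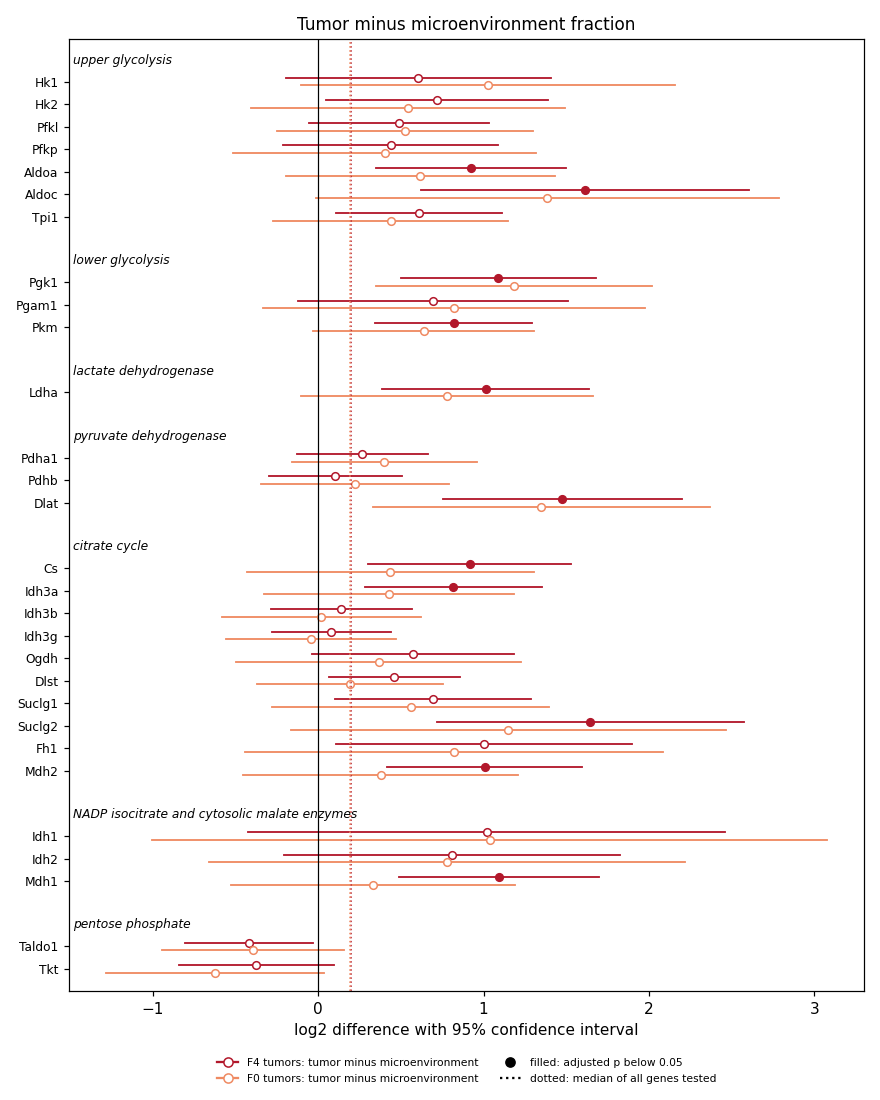
Log2 difference, tumor minus microenvironment fraction, of each gene with its 95% confidence interval, in F4 tumors (dark red, upper of each pair) and F0 tumors (orange, lower). Filled points passed the adjusted test (11 genes, all in F4 tumors) and dotted lines mark the median of all genes tested; Taldo1 and Tkt alone lie below 0 in both kinds of tumor, and they turn positive, still below the median of all genes, when arrays are scaled by their medians.

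The F4 count rested on few arrays, since it was 0 without tumor_F4 B, C or D or microenvironment_F4 B or C, 1 without microenvironment_F4 A and 17 without microenvironment_F4 D. Where it was 0, between 0.983% and 6.55% of all genes passed. With the pool as a replicate block 14 of 29 genes passed, where 33.1% of all genes did. Left out together, the 3 arrays apart gave 24 of 29 genes in F4 tumors (22 higher, and Taldo1 and Tkt lower) and 12 of 29 in F0 tumors, all higher, where 56.7% and 33% of all genes passed.

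Upper glycolysis is the run from glucose to the triose phosphates, and 2 of its 7 measured genes, both aldolases, were higher in tumor_F4 than in microenvironment_F4. Hk2, the inducible hexokinase that traps glucose in the cell, had log2 signals of 11.60, 12.42, 12.41 and 12.59 in tumor_F4 (A to D), against 11.03, 11.42, 11.50 and 12.18 in microenvironment_F4. It had 12.54 and 12.72 in tumor_F0 (B2 and B3), against 11.67 and 12.50 in microenvironment_F0. The F0 fractions did not overlap and the F4 fractions did, and the F4 difference of 0.72 ± 0.31 (SE) missed the threshold (adjusted p = 0.092) but passed with the pool as a block (adjusted p = 0.037). Hk1, the hexokinase of most adult tissues, was dim. It had 4.97, 5.97, 6.03 and 6.002 in tumor_F4, against 4.43, 4.97, 5.36 and 5.79 in microenvironment_F4. It had 6.10 and 6.08 in tumor_F0, against 5.66 and 4.46 in microenvironment_F0. Its probe was not detected on tumor_F4 A, on 3 of the 4 microenvironment_F4 arrays and on either microenvironment_F0 array, so the low values have no order. Its F4 difference of 0.61 ± 0.36 did not pass (adjusted p = 0.205).

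Phosphofructokinase, the committed step of glycolysis, was measured through its liver subunit Pfkl and its platelet subunit Pfkp. Pfkl had 11.50, 11.64, 11.67 and 11.90 in tumor_F4, against 11.15, 10.99, 10.95 and 11.66 in microenvironment_F4, and 11.75 and 11.85 in tumor_F0, against 10.77 and 11.78 in microenvironment_F0. Pfkp had 9.75, 10.60, 10.74 and 10.70 in tumor_F4, against 9.28, 10.25, 10.13 and 10.39 in microenvironment_F4, and 10.26 and 10.51 in tumor_F0, against 9.79 and 10.18 in microenvironment_F0. Both genes overlapped between the F4 fractions, through microenvironment_F4 D for Pfkl and through tumor_F4 A for Pfkp. The F4 differences were 0.49 (95% interval -0.06 to 1.03) for Pfkl and 0.44 (-0.21 to 1.09) for Pfkp, and both intervals include 0. A second Pfkl probe, detected on 3 arrays, gave a larger F4 difference of 0.99 that passed when every probe was tested (adjusted p = 0.019), so the probes of Pfkl disagree on the call.

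Aldolase splits fructose bisphosphate into trioses; Aldoa is the common form and Aldoc the form best known from brain. Aldoa had 12.93, 12.58, 12.71 and 12.72 in tumor_F4, against 11.41, 11.85, 11.71 and 12.27 in microenvironment_F4. Aldoc had 9.21, 8.79, 8.81 and 9.03 in tumor_F4, against 6.60, 7.52, 6.70 and 8.57 in microenvironment_F4. Neither gene overlapped between the F4 fractions, and both were highest among the microenvironment_F4 arrays on array D. The F4 difference was 0.92 ± 0.26 for Aldoa (1.90-fold, adjusted p = 0.032) and 1.61 ± 0.45 for Aldoc (3.06-fold, adjusted p = 0.032). In F0 tumors Aldoa had 12.46 and 12.76 in tumor_F0, against 11.44 and 12.53 in microenvironment_F0. Aldoc there had 8.99 and 9.03 in tumor_F0, against 6.76 and 8.49 in microenvironment_F0, a difference of 1.39 (-0.01 to 2.79) that did not pass (adjusted p = 0.205). Tpi1, which interconverts the trioses, was the brightest probe of this stretch at 13.91 to 14.32 in tumor_F4, against 13.09 to 13.91 in microenvironment_F4, and its difference of 0.61 missed the threshold (adjusted p = 0.066). Its other 2 probes gave 0.82 and 0.56.

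Lower glycolysis makes ATP and pyruvate, and 2 of its 3 measured genes were higher in tumor_F4. Pkm, the pyruvate kinase gene whose M2 splice form is common in tumors, had 13.25 to 13.47 over the 4 tumor_F4 arrays, against 12.24 to 12.98 in microenvironment_F4. The groups did not overlap, and the difference was 0.82 ± 0.22 (1.76-fold, adjusted p = 0.027). The same gene had 13.30 and 13.44 in tumor_F0, against 12.39 and 13.07 in microenvironment_F0, a difference of 0.64 (-0.03 to 1.31). Pgk1, which makes the first ATP of glycolysis, was read by a dim probe at 4.98 to 5.999 in tumor_F4, against 4.28 to 5.03 in microenvironment_F4. That probe was detected on 3 of 4 tumor_F4 and 2 of 2 tumor_F0 arrays and on 0 of the 6 microenvironment arrays, so it met the filter only through the fraction where it was high. Its difference of 1.09 ± 0.27 (adjusted p = 0.023) is given without a fold and as a description. Pgam1, the phosphoglycerate mutase, had 9.83 to 10.13 in tumor_F4, against 8.51 to 9.92 in microenvironment_F4, and did not pass (0.69 ± 0.37, adjusted p = 0.161).

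Lactate dehydrogenase was represented by Ldha, the subunit associated with lactate production. It had 13.53, 13.66, 13.90 and 13.97 in tumor_F4, against 12.28, 12.72, 12.52 and 13.50 in microenvironment_F4. All 4 tumor_F4 arrays lay above all 4 microenvironment_F4 arrays, the nearest being microenvironment_F4 D at 13.50. The difference was 1.01 ± 0.28 (2.02-fold, adjusted p = 0.032). In F0 tumors it had 13.79 and 13.83 in tumor_F0, against 12.59 and 13.47 in microenvironment_F0, a difference of 0.78 (-0.11 to 1.66) that did not pass (adjusted p = 0.252). Without a probe for Ldhb, the balance of the subunits was not analysed here.

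**Figure D2:**
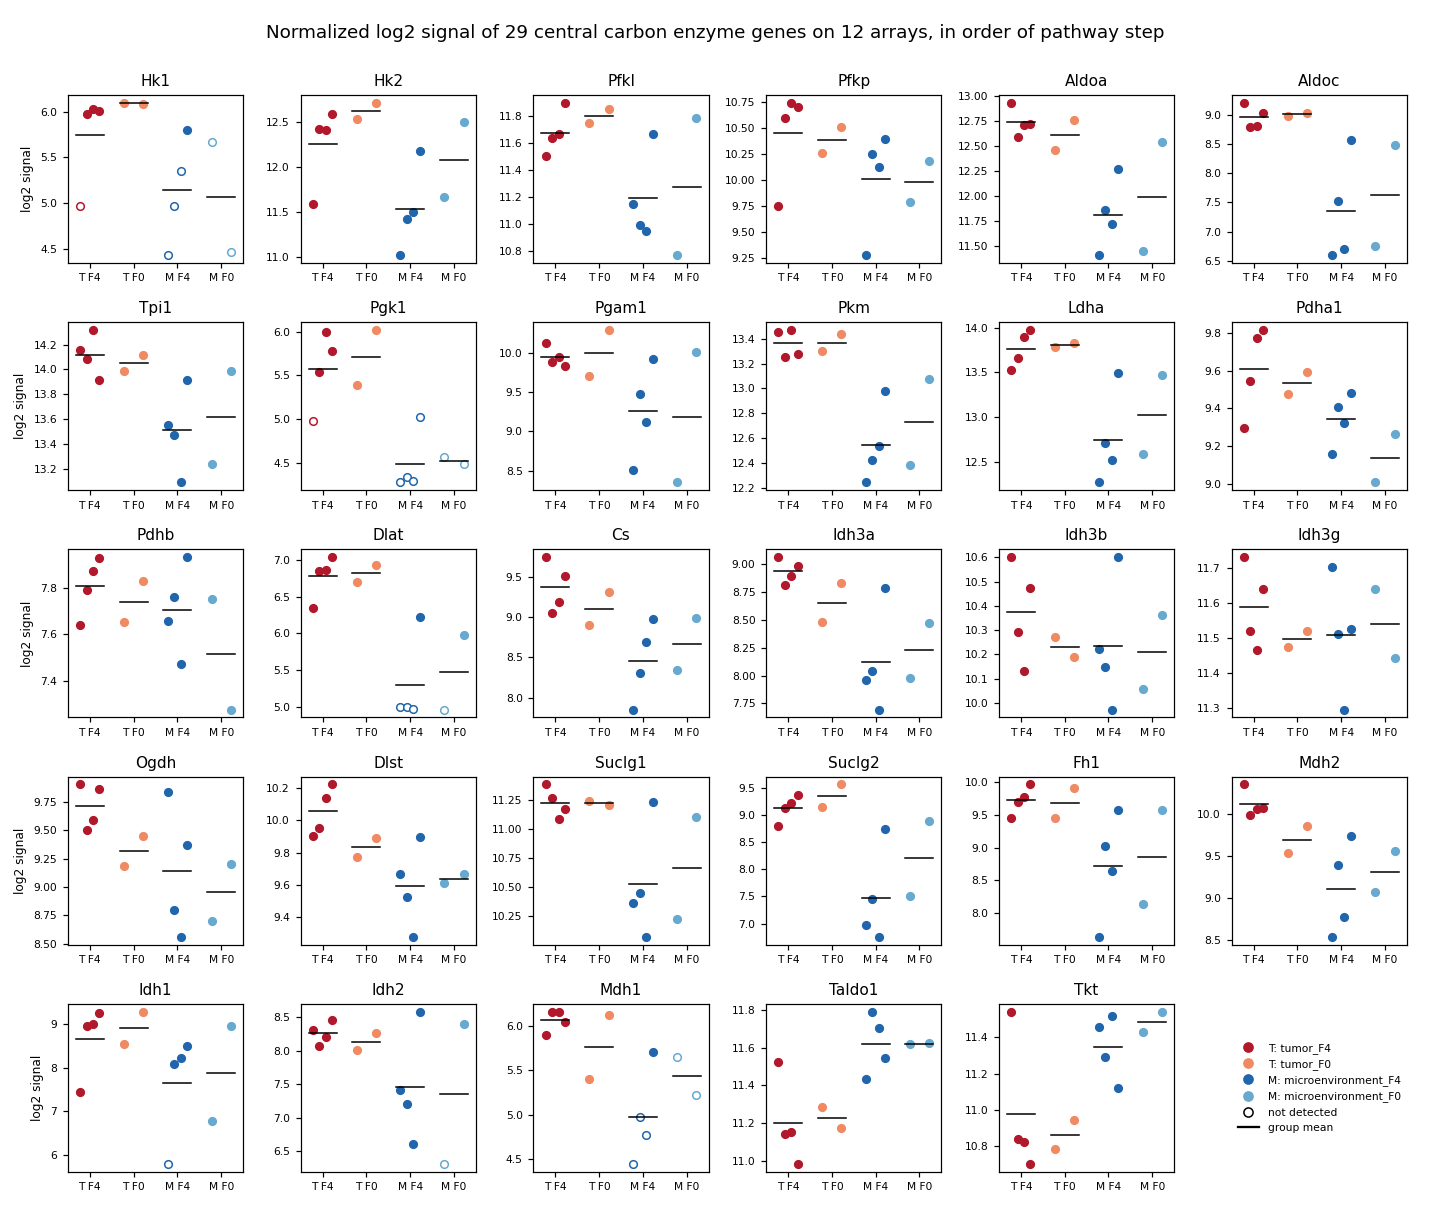
Normalized log2 signal of each of the 29 genes on the 12 arrays, one panel per gene in pathway order, with each panel on its own vertical scale. Points are arrays, bars are group means and open points are arrays on which the probe was not detected; in most panels the high microenvironment points are microenvironment_F4 D and microenvironment_F0 B3, as for Ldha at 13.50 and 13.47.

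The pyruvate dehydrogenase complex links glycolysis to the citrate cycle, and the differences of its subunits between fractions were unequal. Dlat, the acetyl-transferring core of the complex, had 6.35, 6.84, 6.87 and 7.04 in tumor_F4, against 4.998, 4.99, 4.97 and 6.23 in microenvironment_F4. It was detected on all 4 tumor_F4 arrays but on microenvironment_F4 D alone of its group, and the groups did not overlap. The difference was 1.48 ± 0.33 (adjusted p = 0.019), given without a fold because 3 of the 4 microenvironment_F4 values were not above background. The F0 values were 6.70 and 6.94 in tumor_F0, against 4.96 and 5.98 in microenvironment_F0, a difference of 1.35 (0.33 to 2.37, adjusted p = 0.124). The 2 subunits of the decarboxylating enzyme did not follow: Pdha1 had 9.30, 9.55, 9.77 and 9.82 in tumor_F4, against 9.16, 9.41, 9.32 and 9.48 in microenvironment_F4, which overlap, and 9.48 and 9.59 in tumor_F0, against 9.01 and 9.26 in microenvironment_F0. The F4 differences of Pdha1 and Pdhb were 0.27 (-0.13 to 0.66) and 0.10 (-0.30 to 0.50), so their intervals end below that of Dlat, which ran from 0.76 to 2.20. In F0 tumors Pdha1 and Pdhb had differences of 0.40 and 0.22, also smaller than that of Dlat. The F4 difference of Dlat, a dim probe, was 0.51 under the alternative that lowered it most. The difference between subunits was not itself tested.

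In the citrate cycle 4 of 10 measured genes were higher in tumor_F4 than in microenvironment_F4, and all 10 differences lay above 0. Suclg2, the GTP-forming subunit of succinyl-CoA ligase, differed most of all 29 genes. It had 8.79, 9.12, 9.21 and 9.37 in tumor_F4, against 6.97, 7.44, 6.76 and 8.74 in microenvironment_F4, and 9.14 and 9.56 in tumor_F0, against 7.51 and 8.89 in microenvironment_F0. Neither pair of fractions overlapped, with the microenvironment arrays D and B3 nearest to the tumor arrays. The F4 difference was 1.65 ± 0.42 (3.13-fold, adjusted p = 0.026) and the F0 difference 1.15 (-0.17 to 2.46, adjusted p = 0.254). A second, dimmer Suclg2 probe, detected on 6 arrays, gave 0.996 in F4 tumors without passing (adjusted p = 0.109), so the probes agree in sign and not in the call. The partner subunit Suclg1, shared by both forms of the enzyme, had 11.08 to 11.38 in tumor_F4, against 10.07 to 11.23 in microenvironment_F4, and did not pass (0.69, adjusted p = 0.072).

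Mdh2, the malate dehydrogenase of the cycle, had 10.35, 9.98, 10.06 and 10.07 in tumor_F4, against 8.54, 9.39, 8.77 and 9.73 in microenvironment_F4. The groups did not overlap and the difference was 1.01 ± 0.27 (2.01-fold, adjusted p = 0.028). Its F0 values were 9.53 and 9.85 in tumor_F0, against 9.07 and 9.56 in microenvironment_F0, which overlap. Cs, which condenses acetyl-CoA with oxaloacetate, had 9.05 to 9.74 in tumor_F4, against 7.85 to 8.98 in microenvironment_F4 (0.92 ± 0.28, adjusted p = 0.040). Idh3a, the catalytic subunit of the NAD-dependent isocitrate dehydrogenase, had 8.81 to 9.06 in tumor_F4, against 7.69 to 8.78 in microenvironment_F4 (0.82 ± 0.24, adjusted p = 0.037). These 2 genes also did not overlap between the F4 fractions. The other subunits of that enzyme, Idh3b and Idh3g, had differences of 0.14 (-0.29 to 0.57) and 0.08 (-0.28 to 0.44), near the median of 0.20 over all genes. Ogdh and Dlst, of the oxoglutarate dehydrogenase complex, stood at 0.57 and 0.46 and fumarase Fh1 at 1.004, above Cs and Idh3a, and none of the 3 passed (adjusted p = 0.127, 0.075 and 0.081).

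The isocitrate and malate dehydrogenases beside the cycle exchange reducing power between compartments, and 1 of the 3 passed. Mdh1, the cytosolic malate dehydrogenase of the malate-aspartate shuttle, had 5.90, 6.16, 6.16 and 6.04 in tumor_F4, against 4.44, 4.98, 4.77 and 5.70 in microenvironment_F4. It was detected on all 4 tumor_F4 arrays and on microenvironment_F4 D alone of the other group. With 1 of the microenvironment arrays detected, it met the filter only through the fraction where it was high. Its difference of 1.09 ± 0.28 (adjusted p = 0.025) is given as a description. In F0 tumors it had 5.40 and 6.13 in tumor_F0, against 5.65 and 5.22 in microenvironment_F0, neither of which was detected, and the fractions overlapped. Idh1, the cytosolic NADP-dependent isocitrate dehydrogenase, had 7.45, 8.95, 9.01 and 9.25 in tumor_F4, against 5.80, 8.07, 8.22 and 8.49 in microenvironment_F4. It had 8.55 and 9.28 in tumor_F0, against 6.79 and 8.96 in microenvironment_F0. Pool A was the low one in both F4 fractions, and the difference of 1.02 ± 0.66 did not pass (adjusted p = 0.235) but did with the pool as a block (adjusted p = 0.032). Idh2, its mitochondrial counterpart, had 8.32, 8.08, 8.20 and 8.46 in tumor_F4, against 7.42, 7.21, 6.61 and 8.59 in microenvironment_F4. It had 8.01 and 8.26 in tumor_F0, against 6.30 and 8.41 in microenvironment_F0. In pools D and B3 Idh2 was lower in the tumor fraction, by -0.12 and -0.15, while the other 4 pools gave 0.87 to 1.70.

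Taldo1 and Tkt, the transaldolase and transketolase of its non-oxidative branch, were the only 2 of the 29 genes with a difference below 0 in F4 tumors, although under median scaling both turn positive (0.96 and 1.04) and lie 0.26 and 0.18 under the all-gene median of 1.22. In F0 tumors under that scaling they had 1.49 and 1.29, against an all-gene median of 1.68, and Mdh1, at 1.14, lay below both. Taldo1 had 11.53, 11.14, 11.15 and 10.98 in tumor_F4, against 11.44, 11.79, 11.70 and 11.55 in microenvironment_F4. Tkt had 11.54, 10.84, 10.82 and 10.70 in tumor_F4, against 11.46, 11.29, 11.52 and 11.12 in microenvironment_F4. Both overlapped between the F4 fractions through tumor_F4 A alone, the tumor array with the high leukocyte signal. The differences were -0.42 ± 0.18 for Taldo1 (adjusted p = 0.090) and -0.37 ± 0.21 for Tkt (adjusted p = 0.182), so neither passed. Taldo1 had 11.28 and 11.17 in tumor_F0, against 11.62 on both microenvironment_F0 arrays. Tkt had 10.78 and 10.94 in tumor_F0, against 11.43 and 11.54 in microenvironment_F0. In F0 tumors these were the 2 of 29 genes whose fractions did not overlap in the downward direction, where 23.6% of all genes did so, while 13 did so in the upward direction, where 38.5% of all genes did. Within pools both genes were lower in the tumor fraction in 5 of 6 and slightly higher in pool A, by 0.09 and 0.08, and without the 3 arrays apart both passed in F4 tumors at -0.54 and -0.63 (adjusted p = 0.025 and 0.011).

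**Figure D3:**
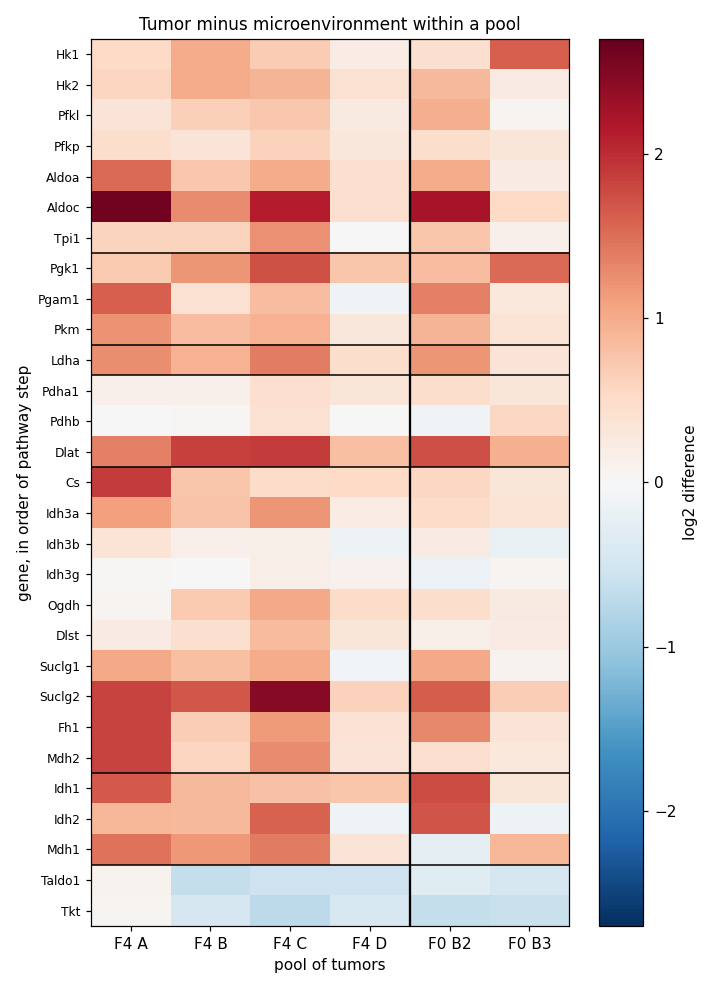
Tumor minus microenvironment log2 difference of each gene within each pool of tumors, genes in pathway order from top to bottom and pools across. Red is higher in the tumor fraction and blue lower; columns F4 D and F0 B3 are palest, with a median over the 29 genes of 0.32 in each, against 0.73 to 0.94 in the other 4 pools, and the bottom pair (Taldo1 and Tkt) is blue in 5 of 6 pools.

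The difference between fractions was smallest in the 2 pools whose microenvironment arrays had the highest melanocyte marker signal. Each gene was centred on its mean over the 12 arrays and the median over the 29 genes was taken per array. It was 0.30 to 0.49 in tumor_F4 and 0.17 and 0.40 in tumor_F0, against -0.78 to -0.45 on microenvironment_F4 A, B and C and -0.56 on microenvironment_F0 B2. The other 2 microenvironment arrays, F4 D and F0 B3, had 0.16 and 0.09, between the fractions and close to tumor_F0 B2. Those are the microenvironment arrays with melanocyte marker signals of 10.87 and 10.76, against 8.60 to 9.72 on the other 4. Among the other 4 the median did not follow the marker signal. Array microenvironment_F4 A, with markers at 9.57, had the lowest median (-0.78), and microenvironment_F4 C, with markers at 8.60, had -0.54. The part of tumor cells without tdTomato in these values was not tested. On tumor_F4 A, where leukocyte and muscle markers were high, the median was 0.32, within the range of its group.

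**Figure D4:**
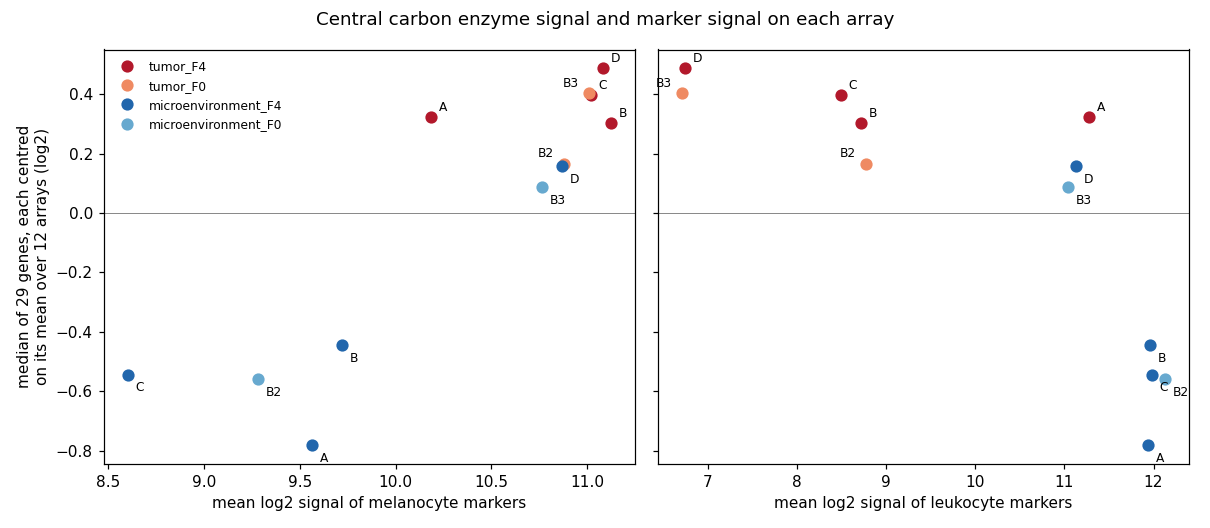
Median centred log2 signal of the 29 genes on each array (vertical) against the mean log2 signal of melanocyte markers (left) and leukocyte markers (right), with arrays lettered by replicate. The microenvironment arrays D and B3 lie at melanocyte signals of 10.87 and 10.76 near the tumor arrays, and the other 4 microenvironment arrays lie from -0.78 to -0.45.

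Isozymes were set against each other within arrays as log2 ratios, which describe unequal differences and not levels, since different probes are not on a common scale. The Aldoa to Aldoc ratio averaged 3.77 ± 0.09 (SD, n = 4) in tumor_F4, against 4.46 ± 0.59 (SD, n = 4) in microenvironment_F4, and 3.59 ± 0.18 (SD, n = 2) in tumor_F0, against 4.37 ± 0.45 (SD, n = 2) in microenvironment_F0. It was lower in the tumor fraction in 6 of 6 pools, by as little as -0.01 in pool D and as much as -1.22 in pool B2. Aldoc thus differed more between fractions than Aldoa in every pool. The ratios of Pfkl to Pfkp and Idh1 to Idh2 differed between fractions with mixed signs over the 6 pools, with mean differences of 0.08 and 0.23 and SDs of 0.29 and 0.62. In the second ratio Idh1 was not detected on microenvironment_F4 A nor Idh2 on microenvironment_F0 B2, and no ratio is given for Hk1 or Mdh1, each of which was detected on 1 of 6 microenvironment arrays.

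Since several glycolytic genes were higher together, the DNA at the gene starts was searched for ACGTG, the core of the hypoxia response element that HIF-1 binds, on both strands of the RefSeq windows of GRCm38.p6, which span 250 bases before to 50 after each start. Of 28 of the 29 genes with such a window, 12 (42.9%) held the motif, against 21.8% of 27025 genes. It was in 6 of the 10 higher genes with a window and in 6 of the 18 others, a split that the number of windows confounds. Of the 6 higher genes, Aldoa, Aldoc, Pkm and Ldha have several windows. Pgk1 and Mdh1 have 1, and their calls are descriptions. Of the 6 others, Hk1 and Ogdh have several windows, and Hk2, Pgam1, Pdhb and Idh3g have 1. No conclusion is drawn from the split. Genes with several windows had more chances of a match: among the 21 members with 1 window 6 held it, against 19.4% of all genes with 1 window. The overlapping 6-base E-box CACGTG, which MYC, USF and MITF proteins can bind, was in 2 of 28 members (7.14%), against 8.09% of all genes. The sequences are given 5′ to 3′ and cover the 250 bases before the start of 3 higher glycolytic genes that hold ACGTG and of Suclg2, which differed most and has none. Capitals mark the motif on either strand, and in Ldha each of 2 E-box copies counts as a match on both strands. They are Ldha at chr7:46845554-46845803 (+ strand), Pgk1 at chrX:106186850-106187099 (+ strand), Aldoa, second of 3 windows, at chr7:126799255-126799504 (- strand), and Suclg2 at chr6:95718847-95719096 (- strand).
Ldha: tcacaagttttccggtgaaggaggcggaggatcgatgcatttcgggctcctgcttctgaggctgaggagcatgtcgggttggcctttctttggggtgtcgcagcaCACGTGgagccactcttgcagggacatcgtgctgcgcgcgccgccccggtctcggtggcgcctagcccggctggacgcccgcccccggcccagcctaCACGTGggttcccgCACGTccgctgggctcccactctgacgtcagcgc
Pgk1: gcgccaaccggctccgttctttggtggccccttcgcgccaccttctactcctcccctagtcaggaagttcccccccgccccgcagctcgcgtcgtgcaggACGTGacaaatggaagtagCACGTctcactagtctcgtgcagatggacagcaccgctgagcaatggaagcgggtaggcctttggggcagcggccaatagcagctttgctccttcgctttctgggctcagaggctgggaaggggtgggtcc
Aldoa: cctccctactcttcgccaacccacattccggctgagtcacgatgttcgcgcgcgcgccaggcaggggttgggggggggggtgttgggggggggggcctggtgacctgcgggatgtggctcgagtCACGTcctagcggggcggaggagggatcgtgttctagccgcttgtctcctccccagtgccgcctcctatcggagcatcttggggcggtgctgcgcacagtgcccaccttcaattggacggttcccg
Suclg2: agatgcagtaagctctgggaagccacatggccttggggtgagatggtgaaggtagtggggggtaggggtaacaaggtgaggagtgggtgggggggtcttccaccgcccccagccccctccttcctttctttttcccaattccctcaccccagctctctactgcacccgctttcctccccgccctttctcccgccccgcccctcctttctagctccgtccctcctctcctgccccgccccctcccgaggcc
Ldha held 5 such matches, Pgk1 2 and Aldoa 1. A match is only a stretch of letters in these windows, and no binding was measured.

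Between F4 and F0 tumor cells, the second question of the design, no gene of the set differed beyond the spread of the pools. In tumor_F4 against tumor_F0, 0 of 29 genes passed, where 0.0887% of all genes did, and 0 had an unadjusted p below 0.05, where 2.09% of all genes did. The differences ran from -0.37 for Hk2 to 0.42 for Mdh2, with a median of 0.06 against -0.02 for all genes. The second, dimmer Suclg2 probe, which is not in that range, gave -0.71, against -0.23 with the probe used. The second probes of Pfkl and Pfkp gave 0.33 and -0.27, against -0.12 and 0.06 with the probes used, so they disagree in sign. The 95% intervals, which take no account of the number of genes tested, reached a median of 0.72 to either side. Differences of up to that size on the log2 scale could not be seen for a typical gene, and larger ones could also be missed. On simulated data, 17% of 2-fold and 69% of 4-fold differences were called in this comparison. For Ldha the difference was -0.04 (-0.81 to 0.73), for Pkm -0.01 (-0.58 to 0.57) and for Aldoa 0.13 (-0.58 to 0.83). The gene with the lowest value was Hk2, at 11.60 to 12.59 in tumor_F4, against 12.54 and 12.72 in tumor_F0, with tumor_F4 A as the low array and the groups overlapping.

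None of these differences passed, and their signs are given by step as a description. Of the 10 citrate cycle genes, 9 lay above 0, where 46.8% of all genes did, with a median of 0.18, while 4 of 7 upper and 3 of 3 lower glycolytic genes lay below 0; under median scaling, which moved the median of all genes to -0.26, 7 of the 10 citrate cycle genes, 2 of the 7 upper and 2 of the 3 lower glycolytic genes lay above that median. Without tumor_F0 B3, 3 of 3 lower glycolytic genes lay above 0. The median centred signal of the citrate cycle genes was -0.015 on tumor_F0 B2 but 0.29 on tumor_F0 B3, within the 0.24 to 0.49 of tumor_F4. With 1 array left out, Fh1 and Suclg1 fell as low as -0.18 and -0.05, while the other citrate cycle genes above 0 stayed there. The groups did not overlap for Dlst, Ogdh and Mdh2 upward and for Hk1 downward, that is 4 of 29 genes, where 13.7% of all genes did not overlap. Mdh2 had 10.35, 9.98, 10.06 and 10.07 in tumor_F4, against 9.53 and 9.85 in tumor_F0, a difference of 0.42 (-0.30 to 1.15). Hk1 had 4.97 to 6.03 in tumor_F4, against 6.08 and 6.10 in tumor_F0, a difference of -0.35 (-1.32 to 0.63) that rested largely on tumor_F4 A, where the probe was not detected.

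**Figure D5:**
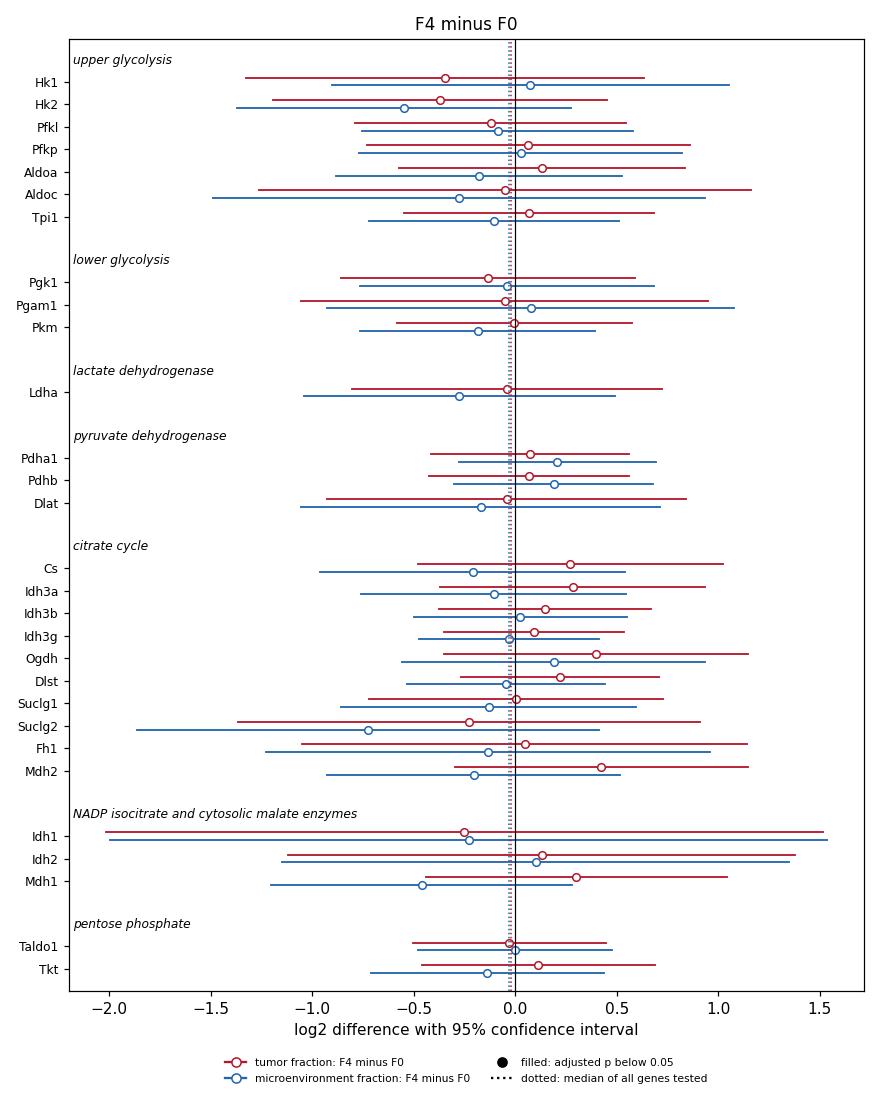
Log2 difference, F4 minus F0, of each gene with its 95% confidence interval, in the tumor fraction (red) and in the microenvironment fraction (blue). Every interval includes 0; the tumor differences run from -0.37 (Hk2) to 0.42 (Mdh2) and the microenvironment differences from -0.72 (Suclg2) to 0.21 (Pdha1), and under median scaling the median of all genes shifts to -0.26 in the tumor and 0.14 in the microenvironment fraction.

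In the microenvironment, F4 against F0 gave 0 of 29 genes at the adjusted threshold, where 0 of all 7894 genes passed, and 0 at an unadjusted p below 0.05, where 2.44% of all genes passed. The median difference was -0.11 against -0.03 for all genes, and 0 of 29 genes separated the groups, where 5.27% of all genes did. Suclg2 had the lowest value, at 6.97, 7.44, 6.76 and 8.74 in microenvironment_F4, against 7.51 and 8.89 in microenvironment_F0, a difference of -0.72 (-1.86 to 0.41). Its second, dimmer probe gave 0.13, so the probes of Suclg2 disagree in sign here. Pdha1 had the highest, at 9.16 to 9.48 in microenvironment_F4, against 9.01 and 9.26 in microenvironment_F0 (0.21, -0.28 to 0.69). With 2 F0 arrays of which B3 carried melanocyte signal, the direction of the members against all genes depended on the array: the member median less the all-gene median was -0.07, and 0.16 without microenvironment_F0 B3.

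The interaction asks whether F4 and F0 differed by unequal amounts in the tumor and the microenvironment fraction, and 0 of 29 genes and 0 of all genes passed, with 0 of 29 at an unadjusted p below 0.05 where 1.23% of all genes were. Its median was 0.17 against 0.02 for all genes. It ran from -0.42 (-1.81 to 0.97) for Hk1 to 0.76 (-0.29 to 1.81) for Mdh1. All 10 citrate cycle genes lay above 0, where 52.4% of all genes did, with values of 0.12 to 0.63; under median scaling, which moved the median of all genes to -0.39, 8 of the 10 lay above that median. This rested on 1 array: without microenvironment_F0 B3, 5 of the 10 lay above 0 and 5 below, with Fh1 at -0.53, and the member median less the all-gene median was -0.15, against 0.15 with all arrays. For Suclg2 the sign also depended on the probe, at 0.50 with the probe used and -0.84 with its second, dimmer probe. The same held for Pfkl (-0.04 with the probe used, 0.84 with the second) and Pfkp (0.04 and -0.41). The second probes of Suclg2 and Pfkl lie outside the range given above. Mdh1 had tumor values of 5.90 to 6.16 in tumor_F4, against 5.40 and 6.13 in tumor_F0, and 4.44 to 5.70 in microenvironment_F4, against 5.22 and 5.65 in microenvironment_F0, most of the microenvironment values being below detection.

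Of 72 other genes of these pathways, listed apart from the 29, 39 had a kept probe. In F4 tumors 9 of the 39 were higher and 2 lower in tumor_F4 than in microenvironment_F4, where 13.3% and 11.2% of all genes were, and their median difference was 0.52 against 0.20 for all genes. The 4 with the largest upward differences were Galm, which interconverts the forms of glucose (1.92, adjusted p = 0.045), Pdk3, a kinase that inhibits pyruvate dehydrogenase (1.53, 0.029), the mitochondrial dicarboxylate carrier Slc25a10 (1.31, 0.034) and Pfkm, the muscle phosphofructokinase subunit (1.26, 0.033). Pfkm had 9.89 to 10.15 in tumor_F4, against 7.88 to 9.61 in microenvironment_F4. The 2 lower ones were Pfkfb4, which sets the fructose 2,6-bisphosphate that drives phosphofructokinase (-1.56, adjusted p = 0.040), and G6pc, the glucose-6-phosphatase best known from liver (-1.42, adjusted p = 0.020). Pfkfb4 had 6.60 to 8.34 in tumor_F4, against 7.42 to 9.57 in microenvironment_F4, and tumor_F4 A was its high tumor array. Like the members' calls, these rested on few arrays: none of the 6 passed without tumor_F4 B, C or D or microenvironment_F4 C, Galm passed in 4 and Pfkfb4 in 4 of 12 fits that left out 1 array, and under median scaling neither Pfkfb4 (-0.21) nor G6pc (-0.53) passed. Galm was not detected on 3 of the 6 microenvironment arrays, nor G6pc on 4 of the 6 tumor arrays.

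Among these 39, 4 genes had an unadjusted p below 0.05 in limma between F4 and F0 in the tumor fraction, where 2.09% of all genes did. The largest upward difference belonged to Pgam2, at 3.62. It had 8.47 to 9.17 in tumor_F4, against 4.91 and 5.51 in tumor_F0. Neither Pgam2 nor Slc2a3, at 1.64, passed in the fit as reported, though both did under some alternatives. The 1 gene with an adjusted p under the threshold there was Fbp2, the muscle fructose bisphosphatase of gluconeogenesis. It was detected on the 2 tumor_F0 arrays alone of the 12, so it met the filter only through the group where it was high. It was not tested without either of those arrays. Its calls, here and between the F0 fractions, are therefore descriptions, like those of Pgk1 and Mdh1. It had 5.28, 4.81, 4.69 and 4.43 in tumor_F4, none detected, against 7.01 and 6.63 in tumor_F0, and was at least 3.02-fold lower in tumor_F4 (log2 difference -2.02 ± 0.25, adjusted p = 0.019). It passed under 16 of 22 alternatives, with an adjusted p of up to 0.148, and not without tumor_F4 B, tumor_F4 C or microenvironment_F4 B. Between the fractions of F0 tumors it was at least 1.64-fold higher in tumor_F0, against 4.996 and 5.05 in microenvironment_F0, where it was not detected (adjusted p = 0.019). There it passed under 16 of 21 alternatives, with an adjusted p of up to 0.154 without microenvironment_F0 B2, and it was the only one of the 39 to pass. In the microenvironment and in the interaction 0 of 39 passed. The smallest p values there belonged to Eno3, the muscle enolase (F4 minus F0 in the microenvironment -0.87, adjusted p = 0.999), Pgam2, the muscle mutase (2.10 in the microenvironment, adjusted p = 0.999), Fbp2 (interaction -1.42) and the glucose transporter Slc2a3 (interaction 1.25, both adjusted p = 1).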

How the data were processed

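Single-colour Illumina mouse bead arrays measured 12 samples. Per the file headers, the deposited table holds non-normalized intensity and a detection p-value for 25697 probes. Per the submitters' processing notes they came from GenomeStudio, whose version is not given in the sources used here. A second deposited table of processed intensity values for 12824 probes, whose normalization and probe selection are unknown, served as an alternative.

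In R 4.3.3 with limma 3.58.1, neqc corrected the background (normexp, offset 16), quantile-normalized the arrays and took log2. The filter kept 11224 probes, those detected (p below 0.01) on 2 or more arrays. Names came from the platform annotation, updated through RefSeq GRCm38.p6: 12096 probes had 1 symbol (12090 matched), 0 had several, and the brightest of 10438 kept and named probes stood for each of 7894 genes. Quantile normalization gives both fractions one signal distribution, although microenvironment arrays had 6808 to 9387 detected probes and tumor arrays 8995 to 10308, so differences between fractions depend on it.

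A mean per group was fitted to all 12 arrays (residual degrees of freedom 8, prior 3.27), with empirical Bayes moderation and Benjamini-Hochberg adjustment over all genes at 0.05. Every p comes from limma, and SE is its standard error. Where a probe was undetected throughout a group, a fold is given as a bound or left out: the brighter group's mean is set against a floor, which on each array is the lowest detected signal or, if greater, the gene's own. The p-values measure the spread between pools. Fractions of a pool come from the same mice, so pool numbers pair the samples; deviations from group means correlated at 0.113, 0.107, -0.072 and 0.562 in pools A to D and 0.393 in B2 and B3, and the pool block was an alternative. Other alternatives were the scaling, background correction, filter, handling of several probes, array weights, the processed table, the samples fitted, and arrays left out.

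The members and lists were chosen with earlier results of these data known. Values on every array are given for the members with the largest differences each way and for isozyme pairs, and of the other pathway genes up to 4 each way that passed, or the 2 with the smallest p. On simulated data of 7894 genes with 200 changed, 40% of 2-fold and 86% of 4-fold differences were called between the F4 fractions (2 false calls), 9% and 55% between the F0 fractions (5), 17% and 69% between F4 and F0 tumor fractions (5), 22% and 74% between the microenvironment fractions (3), and 2% and 34% for the interaction (2). The simulation drew each value independently around the gene's mean with the gene's residual spread. It held no shifts shared by a whole array and no correlation within pools. It changed 200 genes, whereas 1939 passed between the F4 fractions in the data, and the adjustment depends on that share. Its rates therefore need not hold for these arrays. The number of arrays limits the precision.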

Additional observations from a re-analysis of the deposited data

Results flagged for a closer look

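Each of the 29 genes was checked in both 4-array groups for a value far from the others, by the gap to the nearest other value as a share of the group's range (Dixon's test at the 95% level). Of 58 gene and group pairs, 7 stood out, where chance gives about 5 in 100, so a few of these are to be counted on by chance. Array tumor_F4 A gave 4 of them. There Hk1, below detection on that array, was at 4.97 against 5.97 to 6.03 on the other tumor_F4 arrays, Pfkp at 9.75 against 10.60 to 10.74, Idh1 at 7.45 against 8.95 to 9.25, and Tkt at 11.54 against 10.70 to 10.84. This is the array with leukocyte markers at 11.28, skeletal muscle markers at 8.25 and a mean raw signal of 250.5, and the part of these in the 4 values was not tested. Array microenvironment_F4 D, with melanocyte markers at 10.87, gave 2: Pgk1 at 5.03 against 4.28 to 4.34, and Dlat at 6.23 against 4.97 to 4.998. Pgk1 was below detection on all 4 microenvironment_F4 arrays, so its gap lies among background readings and marks no array; Dlat was detected on D alone of the 4. On microenvironment_F4 A, Idh1 was at 5.80 against 8.07 to 8.49 and was below detection. No gene's difference between F4 and F0 in one fraction was distinguishable by test from that in the other.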

How the results depend on the processing

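Over 26 alternatives, the members gave 3504 values, of which 3329 kept their side of the threshold. Most of the 3504 belong to comparisons where no member was called, so that share says little about the calls. Of the values for called genes, 70 lost the threshold. Among the 11 called genes, Cs passed under the fewest alternatives (15 of 24) and Dlat under the most (19 of 24), and Pgk1 passed under 17 of 23. The count of 11 in F4 tumors ran from 0 to 17 with 1 array left out. It was 29 under median scaling (72.8% of all genes passed), 26 with array weights (24 higher, 2 lower; 74.7%) and 24 without tumor_F4 A, microenvironment_F4 D and microenvironment_F0 B3 (56.7%), and 10 to 14 otherwise (14 with the replicate block). The 0 in F0 tumors became 29 under median scaling (70.6%) and 12 without those 3 arrays (33%), and stayed 0 with the block, as did the counts of 0 elsewhere under every alternative run. Median scaling moved the all-gene median to 1.22 in F4 and 1.68 in F0 tumors and the share of called genes that were higher from 54.3% to 93.1% in F4 and from 29.2% to 96.5% in F0. It turned Taldo1 (0.96 in F4, 1.49 in F0), Tkt (1.04, 1.29), Idh3g (1.85 in F0) and Slc2a3 (1.39 in F4) positive, and the F0 member median less the all-gene median was 0.65 against 0.33. With 1 array left out that value ran from -0.013 (without microenvironment_F0 B2) to 0.57 in F0 tumors and from 0.42 to 0.72 in F4 tumors. For F4 against F0 it ran from 0.02 to 0.14 in the tumor fraction, from -0.41 to 0.16 in the microenvironment and from -0.15 to 0.51 for the interaction. Without the 3 arrays it was 0.034 in the microenvironment, against -0.07, and -0.0078 for the interaction, against 0.15. The cause of these shifts was not tested. Signal near background limits Hk1, Pgk1, Dlat and Mdh1, which were undetected on several arrays.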
